A study of Mus musculus with 6 samples.

Results

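Transcripts of glycolysis and of the hypoxia response were examined in mouse embryonic stem cells that carry wild-type, mutated or no THAP1. The set holds 35 named genes, and all 35 were present in the deposited table of 19713 genes and passed the filter that 15287 genes passed, a value of 10 or more in 2 or more of the 6 libraries. The genes were taken by symbol and not by their values: 2 glucose transporters, 10 genes of upper glycolysis, 7 of lower glycolysis, 6 that handle pyruvate and lactate, and 10 of the hypoxia response. RNA was sequenced from 3 genotypes with 2 libraries each, numbered replicate 1 and replicate 2. WT cells are wild type, C54Y cells are homozygous for the missense change C54Y in THAP1, and KO cells are labelled THAP1 -/- and carry a deletion of exon 2 of Thap1. All cells were derived from C57Bl/6 blastocysts and shared 1 culture medium, with 15% fetal calf serum and leukemia inhibitory factor at 1000 units per ml, on irradiated mouse fibroblasts. Whether the libraries of a genotype came from separate cultures or clones is not given, so p-values measure only the spread between these samples, which may be technical.

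Glycolysis splits glucose into pyruvate and yields ATP without oxygen. Glucose enters through the carriers Slc2a1 and Slc2a3, hexokinase traps it, and phosphofructokinase commits it to the pathway. Lactate dehydrogenase turns pyruvate into lactate, while pyruvate dehydrogenase kinases keep pyruvate out of the mitochondria by switching off pyruvate dehydrogenase. Pluripotent cells are known for a high glycolytic rate. HIF1A, the oxygen-regulated subunit of hypoxia-inducible factor, is marked for degradation by the prolyl hydroxylases Egln1 and Egln3 when oxygen is present, and otherwise activates glycolytic genes and genes such as Vegfa and Bnip3. THAP1 is a zinc finger transcription factor mutated in an inherited dystonia.

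Libraries held 31774656 to 46772996 reads. For replicates 1 and 2, the Thap1 row held 433 and 701 normalized counts in WT, with 2253 and 2533 in C54Y, and KO had 1975 and 1687. By limma with the replicate number as a block, Thap1 was higher in KO (log2 fold change 1.72, adjusted p = 0.0018) and in C54Y (2.11, adjusted p = 0.00301). The row thus separated the mutants from WT. It shows neither the loss of 1 exon nor a single base change, so it does not check which mutation a library carries. Embryonic stem cell markers were abundant in every library, with Pou5f1 between 32384 and 122969 and Sox2 between 11159 and 19823. Of these 8 markers, 6 rose in KO (median log2 fold change 0.93) and 1 in C54Y. Markers of extraembryonic endoderm fell: 11 of 13 tested in KO (median -1.98) and 8 of 13 in C54Y (-1.39). Their sum was 41579 (WT), 16865 (C54Y) and 13636 (KO) in replicate 1 and 25062, 14678 and 14116 in replicate 2, with Afp and Ttr at or near 0 throughout. Lamb1 (13774), Col4a1 (9542), Lama1 (8863) and Col4a2 (5533) made up most of the sum in WT replicate 1. Fibroblast markers, which trace the feeder layer, summed to 53881, 63396 and 36387 in WT, C54Y and KO of replicate 1 and to 68452, 80567 and 77819 in replicate 2, and 2 of 23 fell in KO. Fn1 made up much of these sums: without it they were 19568, 16163 and 5991 in replicate 1 and 46496, 54968 and 51227 in replicate 2. KO replicate 1 was lowest with and without Fn1. The median log2 difference of these markers between KO and WT was -1.07 within replicate 1 and -0.04 within replicate 2. Lum was at 0 in 5 libraries. In such bulk samples fewer cells of a type and less RNA per cell cannot be told apart. The part of these other cell types in the results on glycolysis was not tested.

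The sequences just before the transcription starts of 6 genes are shown because these genes changed in KO: Pfkp, Ldha, Pgk1 and Pdk3 rose, and P4ha2 and Eno2 fell. They are the 250 bases before the start in the RefSeq table of build GRCm38.p6, 5′ to 3′ on the gene's strand, and capitals mark the core that hypoxia-inducible factor binds, ACGTG or GCGTG on either strand. They lie at chr13:6648772-6649021 (minus strand, Pfkp), chr7:46845554-46845803 (plus, 1 of several starts listed for Ldha), chrX:106186850-106187099 (plus, Pgk1), chrX:93832151-93832400 (minus, Pdk3), chr11:54100674-54100923 (plus, P4ha2) and chr6:124769674-124769923 (minus, Eno2).
Pfkp: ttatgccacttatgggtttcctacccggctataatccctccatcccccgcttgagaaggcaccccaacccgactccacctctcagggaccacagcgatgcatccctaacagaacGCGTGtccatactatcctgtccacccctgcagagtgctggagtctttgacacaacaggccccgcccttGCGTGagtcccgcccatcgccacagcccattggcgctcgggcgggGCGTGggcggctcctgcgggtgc
Ldha: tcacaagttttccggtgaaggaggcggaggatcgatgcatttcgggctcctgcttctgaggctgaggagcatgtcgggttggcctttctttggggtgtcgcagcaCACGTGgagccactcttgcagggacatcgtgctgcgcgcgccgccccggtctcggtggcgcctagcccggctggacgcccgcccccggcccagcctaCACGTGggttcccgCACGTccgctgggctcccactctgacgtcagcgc
Pgk1: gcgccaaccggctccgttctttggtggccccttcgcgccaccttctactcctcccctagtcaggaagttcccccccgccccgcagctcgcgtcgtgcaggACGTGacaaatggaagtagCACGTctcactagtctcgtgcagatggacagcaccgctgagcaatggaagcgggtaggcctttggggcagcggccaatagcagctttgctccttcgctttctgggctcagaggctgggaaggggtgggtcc
Pdk3: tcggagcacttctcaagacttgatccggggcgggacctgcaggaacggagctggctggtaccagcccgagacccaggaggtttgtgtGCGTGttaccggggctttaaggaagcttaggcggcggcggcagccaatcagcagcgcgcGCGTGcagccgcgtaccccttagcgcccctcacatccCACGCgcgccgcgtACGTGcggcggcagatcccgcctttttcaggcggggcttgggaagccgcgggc
P4ha2: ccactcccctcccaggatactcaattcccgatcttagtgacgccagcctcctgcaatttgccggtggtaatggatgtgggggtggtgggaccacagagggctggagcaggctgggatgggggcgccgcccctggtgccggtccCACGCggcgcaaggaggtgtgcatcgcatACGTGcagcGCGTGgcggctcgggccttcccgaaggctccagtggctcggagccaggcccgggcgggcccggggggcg
Eno2: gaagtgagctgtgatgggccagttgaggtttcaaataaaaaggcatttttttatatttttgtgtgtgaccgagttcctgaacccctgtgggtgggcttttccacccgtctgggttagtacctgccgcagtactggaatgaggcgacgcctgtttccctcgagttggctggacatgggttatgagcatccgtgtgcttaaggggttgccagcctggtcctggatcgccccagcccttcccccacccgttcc

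Pfkp holds GCGTG 3 times, Pdk3 holds 4 cores, Pgk1 2, and P4ha2 3, whereas the Eno2 stretch holds none. Ldha has 5 matches, in part because CACGTG reads as a match on both strands, and this palindrome is also the E-box to which MYC and other factors bind. Of the 33 members with a RefSeq promoter (250 bases before to 50 after each start), 30 held a core in at least 1 promoter. By promoter, this was 80.9% of 47, against 60.0% of the 14320 promoters of tested genes and 43.8% of all 32851. The set was chosen for glycolysis and hypoxia, whose genes this factor is known to activate, so this comparison is not a test. All 8 genes that rose in KO, 3 of the 4 that fell and 19 of the 21 others with a promoter held a core. The share by gene over all tested genes was not counted. The THAP1 core TNNGGGCA, searched on both strands, occurred in 14.9% of the members' promoters and in 14.4% of those of tested genes. In the stretches shown, it was found in Pgk1 only, from base 70 to base 63 before the start. Such matches describe letters and are not evidence of binding.

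Levels of the 35 genes spanned a wide range. Per kilobase of exon and averaged over the 6 libraries, the highest levels were those of Pkm (41687 normalized counts per kb), Gapdh (30878), Pgk1 (26827), Pgam1 (25301), Aldoa (22187) and Ldha (19356), all enzymes of the trunk of the pathway. Tpi1 (7971), Slc2a3 (7868), Slc2a1 (6504), Ldhb (5610) and Gpi1 (5063) followed. The lowest levels were those of Pfkfb3 (82.4), the neuronal enolase Eno2 (34.1) and Eno1 (22.6). Over the libraries Pkm ranged from 22752 to 67644 per kb and Ldha from 8624 to 32684, a spread that lies largely between the replicate numbers. Within each of the 6 libraries Pkm exceeded Gapdh and Pgam1 exceeded Aldoa, whereas Gapdh and Pgk1, Pgk1 and Pgam1, and Aldoa and Ldha changed order in at least 1 library. The 25 genes of glycolysis, pyruvate and lactate took 1.63%, 1.62% and 1.73% of the normalized counts in WT, C54Y and KO of replicate 1 and 2.27%, 2.38% and 2.7% in replicate 2. The 10 hypoxia genes took between 0.0314% and 0.0621%.

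Some genes are copied nearly whole elsewhere in the mouse genome, and their rows are uncertain for that reason. The coding sequence of 8 members matched at least 1 other transcribed locus or pseudogene in GENCODE M21 at 95% identity or more over at least 80% of its length. Gapdh had 70 such copies, Bnip3 4, Eno1 3, Pgk1 and Ldha 2 each, and Pgam1, Pkm and Ldhb 1 each. Eno1, the main enolase of most proliferating cells, read only 95.2 to 187 normalized counts, while Eno1b, a copy whose transcript matched the Eno1 coding sequence at 99.4% identity, read 4618 to 12237. How reads that fit both were counted was not stated, so the Eno1 row was not taken as the level of this enzyme. For Eno1b the log2 difference between KO and WT (± SE) was 0.15 ± 0.15, with an adjusted p of 0.542, and C54Y stood at 0.07 ± 0.15 (adjusted p = 0.916).

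Cells lacking THAP1 were first set against WT. The platelet-type phosphofructokinase Pfkp rose most, 2.67-fold, followed by the kinase Pgk1 (1.8-fold), the pyruvate dehydrogenase kinase Pdk3 (1.77-fold) and the lactate dehydrogenase subunit Ldha (1.53-fold). Hk2, Aldoa, Pgam1 and Pkm rose by smaller amounts, 1.27- to 1.38-fold. Pfkfb3, Eno2, P4ha2 and Pdk1 fell to 0.487, 0.497, 0.556 and 0.567 of WT. In all, 8 of 35 rose (22.9%), against 8.9% of all tested genes, and 4 fell (11.4%), against 7.41%. Together 12 changed (34.3%), against 16.3%, and 23 did not pass. For the 35 genes the median log2 fold change came to 0.14, beside 0.03 for all tested genes. Taking replicate 1 alone, these medians were 0.11 for the members and 0.12 for all tested genes. Taking replicate 2 alone, they were 0.20 and -0.02. The members thus stood above the background for replicate 2 but not for replicate 1.

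These calls rest on limma with the replicate number as a block and Benjamini-Hochberg adjustment over 15287 genes at a threshold of 0.05. Without the block, limma called none of the 35 and none of all genes in KO (at an unadjusted p under 0.05 Pfkp alone of the 35, and 6.86% of all genes). Unblocked edgeR also called none (Pfkp and Pdk1, and 6.93% of all genes, at an unadjusted p under 0.05), and unblocked DESeq2 called 1.54% of all genes and none of the set. Scaling moved the balance of directions: with TMM factors, and with blocked edgeR, 4 were called up and 5 down, Ddit4 being the added one. Among all called genes TMM factors moved the share called up from 54.6% to 44.8%. Pfkp, Pgk1, Ldha and Pdk3 rose under each blocked setting that was run. Single libraries also moved the counts, for the members and for all genes. Fewer of both were called up without either WT library and without either C54Y library, and more without either KO library. Fewer of both were called down without either WT library, and more without KO replicate 2.

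**Figure D1:**
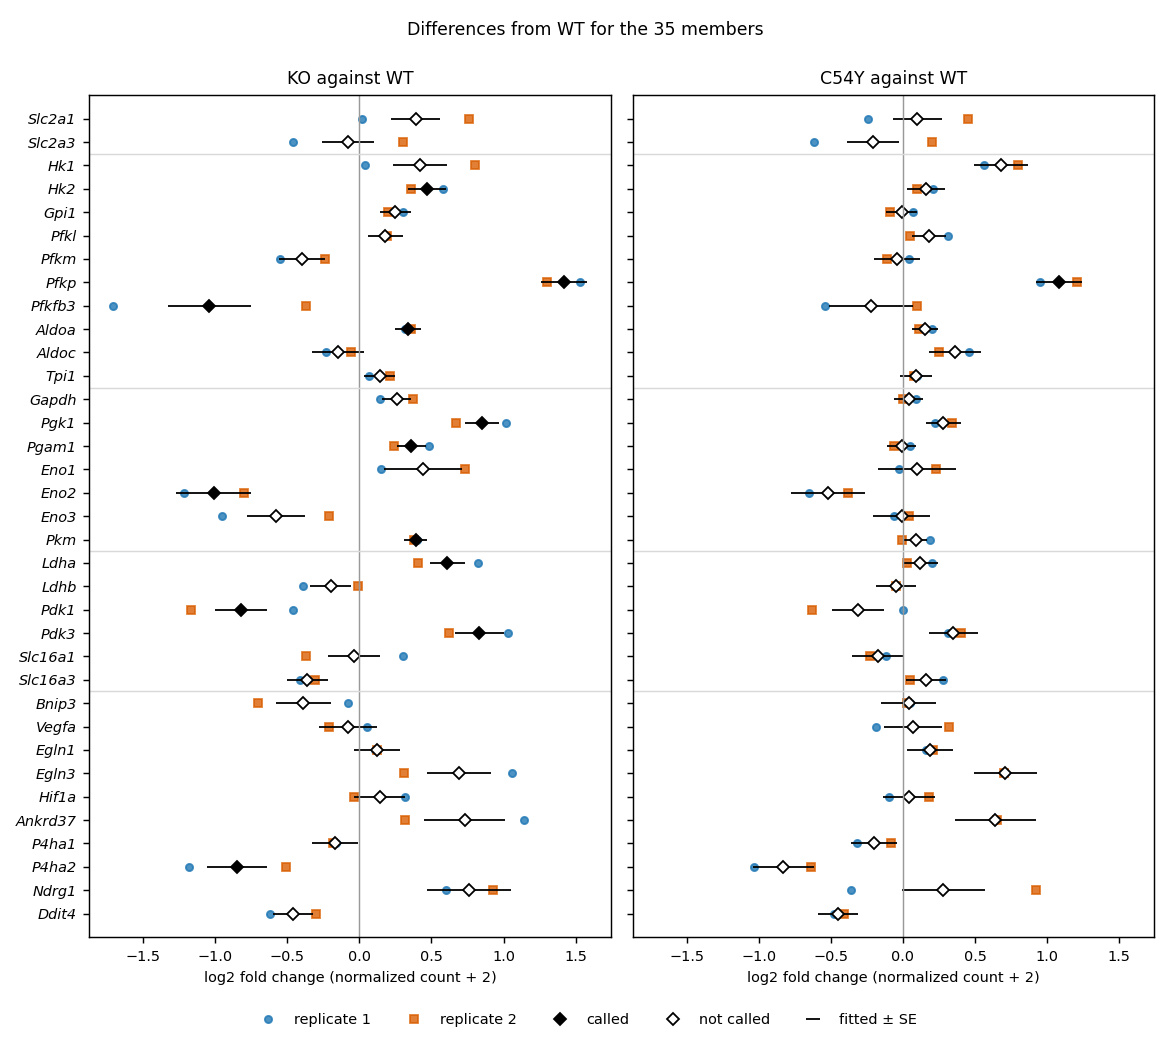
Log2 fold changes of the 35 genes against WT on the log2(normalized count + 2) scale, in KO (left) and C54Y (right), in the order transport, upper glycolysis, lower glycolysis, pyruvate and lactate, hypoxia. Circles and squares give the difference within replicate 1 and replicate 2, diamonds the fitted value with its SE (horizontal line), filled where called. Pfkp lies farthest to the right in both panels, at 1.42 and 1.08.

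Glucose transporters were not called. Slc2a1, the widespread glucose carrier, read 24330 in WT and 24733 in KO of replicate 1, and 16567 and 28019 in replicate 2 (log2 fold change 0.39, adjusted p = 0.166). Slc2a3, a high-affinity carrier, was lower in KO within replicate 1 (-0.46) and higher within replicate 2 (0.30).

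In upper glycolysis, 3 of 10 genes rose and 1 fell. Pfkp read 2198, 4252 and 6370 normalized counts in WT, C54Y and KO of replicate 1 and 2925, 6747 and 7202 in replicate 2. Both mutants lay above both WT libraries, and KO lay above C54Y within each replicate. Its rise in KO was 1.42 ± 0.16 (log2 fold change ± SE, adjusted p = 0.00102). Hk2, the inducible hexokinase, read 10287, 11880 and 15407 in replicate 1 and 8280, 8900 and 10596 in replicate 2. The KO libraries did not overlap WT, with a rise of 0.47 ± 0.13 (adjusted p = 0.0353). Its call was lost with TMM factors, with edgeR, and without either WT or either C54Y library (adjusted p 0.0623 to 0.245).

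Aldoa, the main aldolase, read 38596, 44391 and 48276 in replicate 1 and 107815, 116158 and 138638 in replicate 2. Replicates differed more than genotypes, so the groups overlapped, and within each replicate the order was WT, C54Y, KO. The rise of 0.34 ± 0.09 (adjusted p = 0.0369) was lost with TMM factors, edgeR and DESeq2 and without either WT or either C54Y library (adjusted p 0.0855 to 0.171). Pfkfb3 makes fructose 2,6-bisphosphate, the strongest activator of phosphofructokinase. It read 1356, 930 and 413 in replicate 1 and 364, 391 and 281 in replicate 2. KO was lowest in both, but the difference was -1.71 within replicate 1 and -0.37 within replicate 2. Its fall of -1.04 ± 0.29 (adjusted p = 0.0416) was lost without WT replicate 1 (-0.54, adjusted p = 0.376) or KO replicate 1 (-0.53, adjusted p = 0.0616). The other 6 genes, Hk1, Gpi1, Pfkl, Pfkm, Aldoc and Tpi1, lay between -0.40 and 0.42 and were not called.

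In lower glycolysis, 3 of 7 genes rose and 1 fell. Pgk1, which makes the first ATP of the pathway, read 28271, 32984 and 57467 in replicate 1 and 62790, 79486 and 100198 in replicate 2. It was highest in KO within both replicates, with differences of 1.02 and 0.67, although KO replicate 1 lay below WT replicate 2. Its rise was 0.85 ± 0.12 (adjusted p = 0.00334). Pgk1 is X-linked, as is Pdk3, and X-linked genes stood higher in KO in general: of 567 tested, 189 rose (33.3%), with a median of 0.59. The rise of these members and that of the chromosome cannot be told apart. Without both, the median of the remaining 33 members was 0.14.

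Pkm, the pyruvate kinase of proliferating cells and muscle, read 113785, 129413 and 150372 in replicate 1 and 260399, 258603 and 338287 in replicate 2. The difference was 0.40 and 0.38 within the replicates, and the rise of 0.39 ± 0.08 (adjusted p = 0.0166) missed the threshold with TMM factors (0.0512), edgeR (0.0506), DESeq2 (0.11) and without WT replicate 1 (0.0643). Pgam1, a phosphoglycerate mutase, read 26983, 27879 and 37730 in replicate 1 and 66398, 63688 and 78207 in replicate 2. KO was the highest library of each replicate. Its rise of 0.36 ± 0.10 (adjusted p = 0.048) was lost without a filter on low values, with TMM factors, edgeR and DESeq2, and without any 1 library other than KO replicate 2 (adjusted p 0.0602 to 0.317). Eno2 read 323, 205 and 137 in replicate 1 and 127, 97.4 and 72.6 in replicate 2, with KO lowest in both. The fall of -1.01 ± 0.26 (adjusted p = 0.0297) was lost without WT replicate 1 (0.247) or WT replicate 2 (0.0516). Eno3, the muscle enolase, stood at -0.58 (adjusted p = 0.0883), Gapdh at 0.26 (0.116) and Eno1 at 0.44 (0.319).

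**Figure D2:**
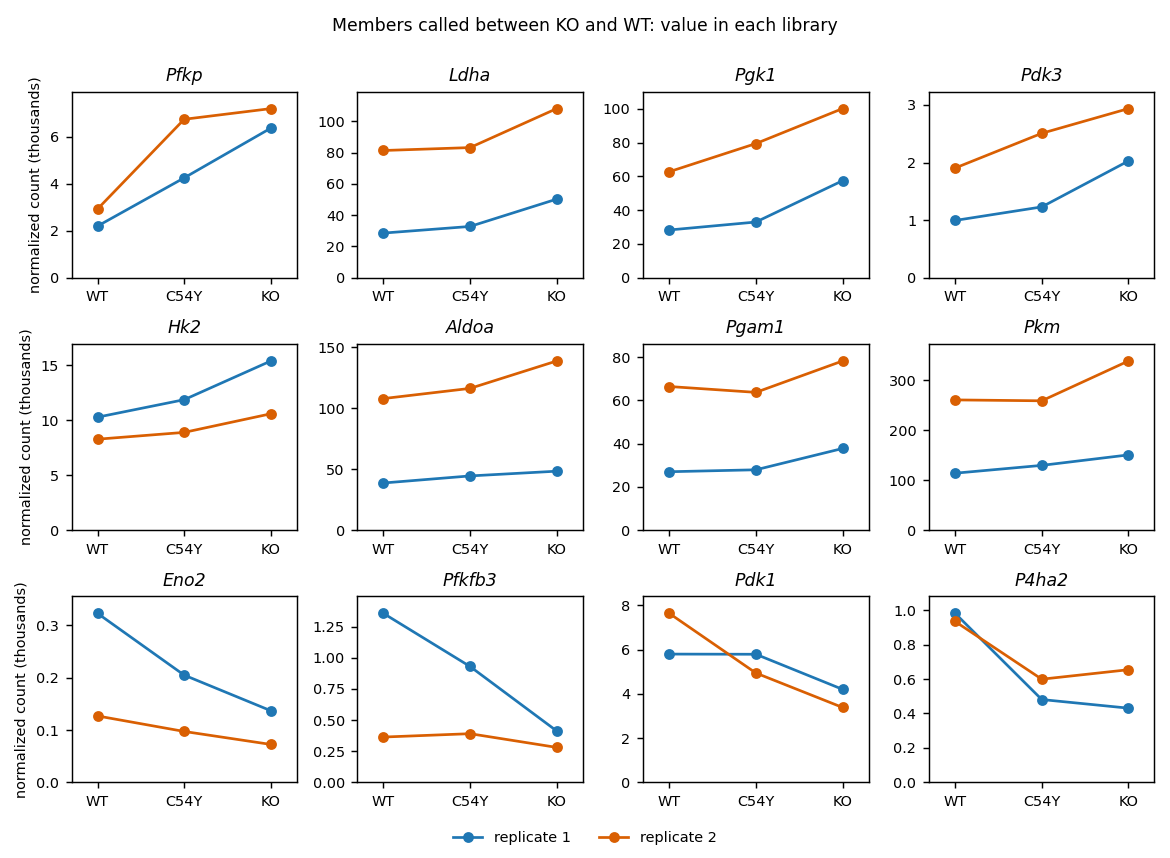
Normalized counts (divided by 1000, linear axes from 0) of the 12 genes called between KO and WT, by genotype, with the libraries of replicate 1 and replicate 2 joined by lines. Both lines end higher in KO than in WT for the first 8 genes and lower for Eno2, Pfkfb3, Pdk1 and P4ha2, while replicate 2 lies above replicate 1 throughout for Pfkp, Ldha, Pgk1, Pdk3, Aldoa, Pgam1 and Pkm.

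Among genes of pyruvate and lactate, 2 of 6 rose and 1 fell. Ldha, whose subunit favours lactate production, read 28546, 32786 and 50265 in replicate 1 and 81380, 83244 and 108185 in replicate 2. It was highest in KO within each replicate, by 0.82 and 0.41. Its rise was 0.61 ± 0.12 (adjusted p = 0.00939). Ldhb, the subunit typical of heart, stood at -0.20 (adjusted p = 0.391).

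The pyruvate dehydrogenase kinases Pdk3 and Pdk1 moved apart. Pdk3 read 994, 1229 and 2026 in replicate 1 and 1904, 2507 and 2936 in replicate 2, so that KO lay above WT without overlap (0.83 ± 0.17, adjusted p = 0.0131). Pdk1, a well-known hypoxia-induced member of this family, read 5801, 5793 and 4208 in replicate 1 and 7642, 4945 and 3390 in replicate 2. Both KO libraries lay below both WT libraries. Its fall of -0.82 ± 0.18 (adjusted p = 0.019) was lost without WT replicate 2 (-0.48, adjusted p = 0.228). Of the lactate carriers, Slc16a1 stood at -0.04 (adjusted p = 0.912) and Slc16a3 at -0.36 (adjusted p = 0.125).

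Of the 10 hypoxia genes, 1 fell in KO and none was called higher by limma or edgeR with the block, whereas blocked DESeq2 called Egln3 higher. At an unadjusted p under 0.05, 3 of the 10 were higher. By limma with the block, 31.1% of all tested genes passed that cut, counted in both directions together. The median of the 10 hypoxia genes was 0.02. P4ha2, a subunit of the prolyl hydroxylase that matures collagen, read 981, 481 and 431 in replicate 1 and 934, 599 and 654 in replicate 2. All 4 mutant libraries lay below both WT libraries. The fall was -0.85 ± 0.21 (adjusted p = 0.0255) and was lost without WT replicate 1 (-0.58, adjusted p = 0.293). Its paralog P4ha1 stood at -0.17 (adjusted p = 0.506).

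Hif1a read 5055, 4711 and 6327 in replicate 1 and 605, 685 and 587 in replicate 2. The genotypes overlapped, and KO differed from WT by 0.32 within replicate 1 and by -0.04 within replicate 2 (0.14 ± 0.18, adjusted p = 0.647). A transcript count does not measure HIF1A protein, which is set mainly by its degradation. The hydroxylase genes Egln1 (0.12, adjusted p = 0.654) and Egln3 (0.69, adjusted p = 0.0639) were not called. Ankrd37 (0.73, adjusted p = 0.115) and Ndrg1 (0.76, adjusted p = 0.109) had KO libraries above those of WT without overlap, and Bnip3 (-0.39, adjusted p = 0.193) and Ddit4 (-0.46, adjusted p = 0.0565) below. Vegfa, the main angiogenic growth factor, stood at -0.08 (adjusted p = 0.818).

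Over all 35 genes, KO lay above WT without overlap in 6 (17.1%) and below in 5 (14.3%), against 13.6% of tested genes each way, so this count was near the background. Within both replicates, 19 were higher in KO (54.3%, against 36.1%) and 12 lower (34.3%, against 29.5%).

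In C54Y cells, Pfkp was the member that changed: it rose 2.11-fold (1.08 ± 0.16, adjusted p = 0.0133), by 0.95 within replicate 1 and 1.21 within replicate 2. The call was lost without C54Y replicate 2 (0.89, adjusted p = 0.329). Thus 1 of 35 changed (2.86%), upwards, against 1.36% of all tested genes called either way, 0.962% up and 0.399% down. By limma with the block none fell (6 of the 35, and 12.3% of all genes, had an unadjusted p under 0.05). Blocked DESeq2 called P4ha2 lower and blocked edgeR none. Of all tested genes, blocked DESeq2 called 479 either way, limma 208 and blocked edgeR 198. More members were called without either KO library and without WT replicate 1, and in each of these fits more of all tested genes were called as well. The members called also changed without WT replicate 2. Without the block none of the 35 was called by limma, edgeR or DESeq2. The median of the 35 was 0.09, beside 0.00 for all tested genes.

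Other genes differed from WT in C54Y by similar amounts in both replicates without passing the test. P4ha2 stood at -0.83 (adjusted p = 0.107), with -1.03 and -0.64 within the replicates. Egln3 stood at 0.71 (adjusted p = 0.194) and Hk1, the constitutive hexokinase, at 0.68 (adjusted p = 0.158), with both C54Y libraries of Hk1 (2177 and 3479) above both WT libraries (1479 and 2000). Ddit4, an inhibitor of mTORC1 signalling, stood at -0.45 (adjusted p = 0.212). Ldha (0.12, adjusted p = 0.794), Pgk1 (0.28, adjusted p = 0.406), Pdk3 (0.35, adjusted p = 0.456) and Pkm (0.09, adjusted p = 0.785) were close to WT or not called. C54Y lay above WT without overlap in 2 genes, against 9.3% of tested genes, and below in 4 (11.4%), against 8.69%. KO and C54Y were compared with the same WT libraries, so their values are not independent.

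The difference between the mutants was tested directly. None of the 35 genes was called between KO and C54Y by limma with the block, with 13 at an unadjusted p under 0.05 (15.4% of all genes), and none by edgeR (12) or DESeq2 (9) with the block. Of all genes, limma with the block called 0.19%, or 29, and blocked edgeR called 29 as well, whereas blocked DESeq2 called 452. The count of 0 depended on the libraries, since members were called without either KO library and without either WT library. In each of these fits more of all tested genes were called as well. With all libraries, the closest to a call was Pgk1 (0.57 ± 0.12, adjusted p = 0.0975), then Ldha (0.50 ± 0.12, adjusted p = 0.11). Slc16a3 (-0.52 ± 0.14, adjusted p = 0.149) and Pkm (0.30 ± 0.08, adjusted p = 0.155) followed. Tested X-linked genes, to which Pgk1 belongs, had a median of 0.30 between KO and C54Y, beside 0.02 for autosomal genes. Pfkp differed by 0.34 ± 0.16 (adjusted p = 0.343), with 0.58 within replicate 1 and 0.09 within replicate 2. That Ldha, Pgk1 and Pdk3 were called in KO and not in C54Y is therefore not shown, over all 6 libraries, to be a difference between the mutants.

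Members of the set with the same activity were weighed against each other per kilobase of exon, as a description without a test. The length was that of all annotated exons of a gene joined, whichever transcripts the cells make, so the shares depend on it. Relatives outside the set, such as Pdk2, Pdk4, Ldhc, Slc2a4 and Slc2a8, were not counted in these sums. Of the summed level of Pfkl, Pfkm and Pfkp, Pfkp made up 7.45%, 11.7% and 19.1% in WT, C54Y and KO of replicate 1 and 4.38%, 9.42% and 9.46% in replicate 2. Pfkl, the liver type, held the largest part in every library, 62.5% to 76.2%. Of the summed level of Pdk1 and Pdk3, Pdk1 held 65.8%, 60.8% and 40.6% in replicate 1 and 56.9%, 39.4% and 27.5% in replicate 2. Per kilobase, Pdk3 thus exceeded Pdk1 in both KO libraries and in C54Y replicate 2. This order rests on the lengths, 7779 bases for Pdk1 and 2561 for Pdk3. In normalized counts Pdk1 exceeded Pdk3 in every library. Ldha held 64.5%, 68.4% and 80.7% of the summed level of Ldha and Ldhb in replicate 1 and 77.9%, 78.9% and 82.5% in replicate 2. Slc2a3 held 63.9%, 57.7% and 55.9% of that of Slc2a1 and Slc2a3 in replicate 1 and 52.9%, 48.7% and 45.1% in replicate 2. Hk2 held 78.5% to 93.5% of that of Hk1 and Hk2, with no common order of genotypes.

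**Figure D3:**
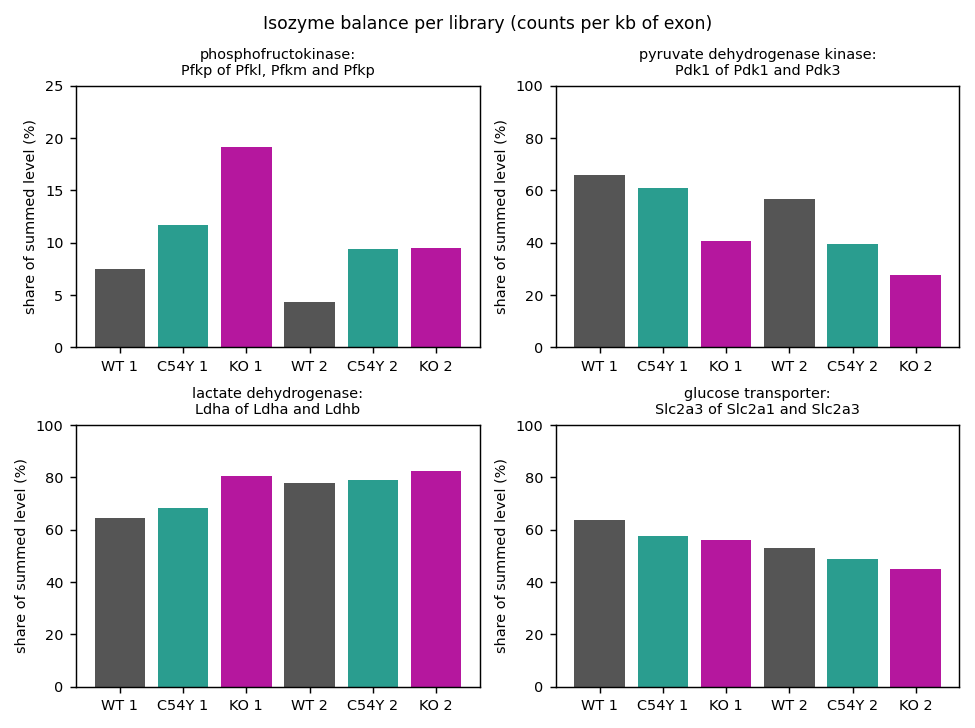
Share (percent) in each of the 6 libraries, from normalized counts per kilobase of exon, of Pfkp in the sum of Pfkl, Pfkm and Pfkp (axis to 25%), of Pdk1 in the sum of Pdk1 and Pdk3, of Ldha in that of Ldha and Ldhb, and of Slc2a3 in that of Slc2a1 and Slc2a3 (axes to 100%). The Pfkp and Ldha shares are lowest in WT within each replicate and highest in KO, and the Pdk1 and Slc2a3 shares run the other way.

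More of these genes were called between the replicate numbers than between genotypes. What the number marks is not given in the labels. In replicate 2, 22 of 35 genes were called higher than in replicate 1 (62.9%), against 32.0% of all tested genes, and 7 lower (20%), against 32.8%. Together 29 were called (82.9%), against 64.9%. The median of the 35 was 0.60, beside 0.01 for all genes. With TMM factors the median of all genes shifted by -0.1 and that of the 35 was 0.49. The pre-ribosomal transcript Rn45s made up at most 0.6% of the reads of a replicate 1 library and at least 1.49% of a replicate 2 library, and 14 of 23 fibroblast markers were higher in replicate 2. The part of library composition and feeder content in this difference was not tested.

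Most abundant enzymes were higher in replicate 2: Aldoa by 1.46 ± 0.08 (adjusted p = 8.92e-07), Pfkl by 1.38, Ldha by 1.32, Tpi1 by 1.30, Gapdh by 1.20, Pgam1 by 1.18, Pkm by 1.12, Pgk1 by 1.07 and Gpi1 by 1.05. In each of these, every library of replicate 2 exceeded every library of replicate 1. Hif1a went the other way and changed most of all 35. It fell by 3.09 ± 0.15 on the log2 scale (adjusted p = 7.12e-07), to 0.118 of its level in replicate 1, with -3.06, -2.78 and -3.43 in WT, C54Y and KO. Large differences were common, since 37.2% of all tested genes differed more than 2-fold between the WT replicates. Vegfa (-1.75 ± 0.16), Pfkfb3 (-1.23), Eno2 (-1.09), Slc16a1 (-0.94), Slc2a3 (-0.68) and Hk2 (-0.42) were also lower. The hypoxia genes did not move as 1 group, since Egln3 (0.97), Ankrd37 (0.80), Egln1 (0.44), Bnip3 (0.43) and Ddit4 (0.41) were higher. The 6 genes left, Slc2a1, Eno1, Pdk1, P4ha1, P4ha2 and Ndrg1, were not called.

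**Figure D4:**
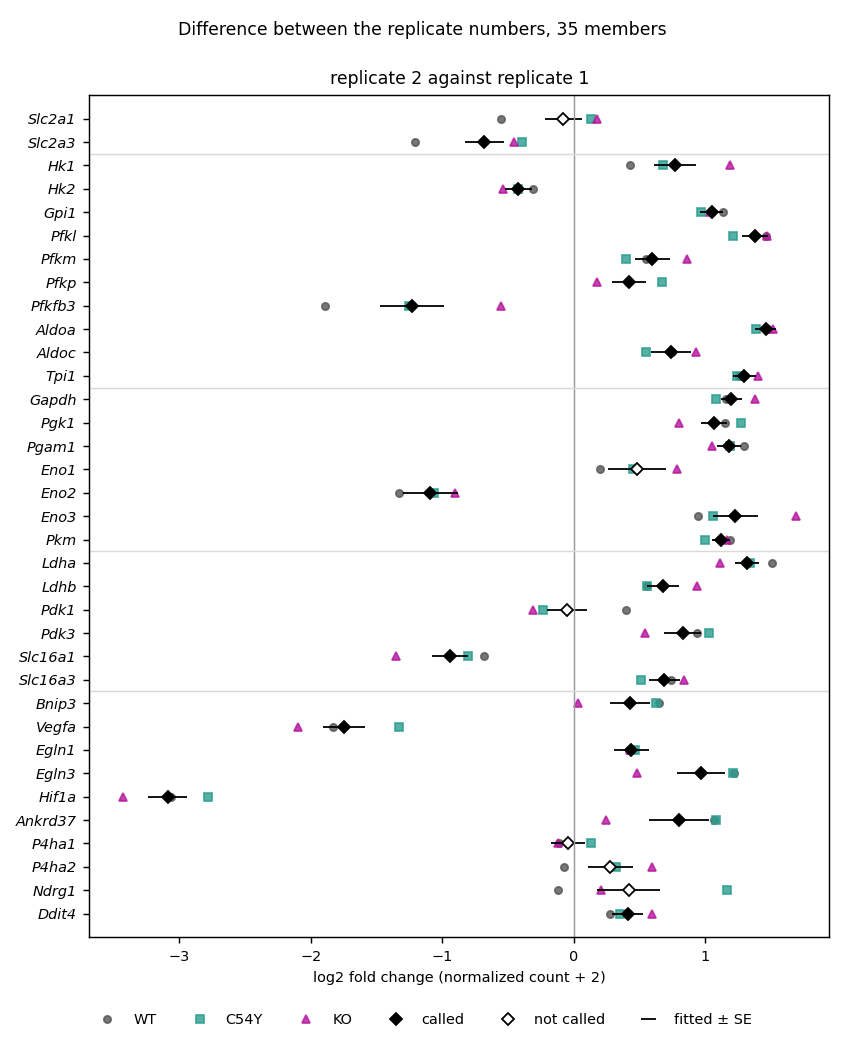
Log2 fold change of replicate 2 against replicate 1 for the 35 genes on the log2(normalized count + 2) scale, with the difference within WT, C54Y and KO as separate symbols, and the fitted value with its SE as a diamond, filled where called. Most enzymes lie right of 0, while Hif1a at -3.09 and Vegfa at -1.75 lie farthest to the left.

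Neighbouring pathways were examined through gene lists outside the set. Of their 102 tested genes, 21 were called in KO (20.6%), against 16.3% of all tested genes. In the pentose phosphate pathway, which branches off at glucose 6-phosphate, 3 of 8 genes were called in KO, all higher (median 0.33): the X-linked G6pdx (0.68 ± 0.14, adjusted p = 0.0121), H6pd (0.75 ± 0.16, adjusted p = 0.0159) and Tkt (0.39 ± 0.11, adjusted p = 0.0423). G6pdx was not called without WT replicate 1 (0.0608), H6pd without WT replicate 1 (0.068) or WT replicate 2 (0.113), and Tkt under 9 of the blocked alternatives, all but those of the pseudocount and of leaving out KO replicate 1. Of 14 tested genes for entry of pyruvate into mitochondria, 2 were called, both higher (median 0.25). These were Pcx, which carboxylates pyruvate (1.07 ± 0.18, adjusted p = 0.0056), and the X-linked Pdha1, the pyruvate dehydrogenase subunit that the Pdk kinases act on (0.74 ± 0.15, adjusted p = 0.0121).

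Of 20 tested genes for other isozymes and side steps, 3 rose and 1 fell in KO (median 0.18). The testis lactate dehydrogenase Ldhc read 12 and 36.0 in WT and 47.8 and 85.3 in KO. Fbp2, a gluconeogenic phosphatase, read 37.3 and 109 against 143 and 191. The hexokinase-like gene Hkdc1 fell from 164 and 36.0 to 5.21 and 11.5. The Ldhc call was lost without WT replicate 1 (0.068), and that of Fbp2 without WT replicate 1 (0.126) or KO replicate 1 (0.0738).

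Of 14 regulators of hypoxia-inducible factor, 1 was called in KO (median 0.13). This was Hif3a, which fell, a family member that can act as an inhibitor, with 598, 556 and 162 in WT, C54Y and KO of replicate 1 and 345, 329 and 153 in replicate 2 (-1.52 ± 0.25, adjusted p = 0.0053). Of 38 other tested HIF targets, 6 rose and 3 fell (median 0.02). The X-linked creatine carrier Slc6a8 (1.43 ± 0.17, adjusted p = 0.00149), the mitochondrial adenylate kinase Ak4 (1.13 ± 0.20, adjusted p = 0.00737) and Upk1a (1.44 ± 0.26, adjusted p = 0.00759) rose, while the circadian repressor Bhlhe41 fell (-1.95 ± 0.27, adjusted p = 0.00265). Of 8 transcription and RNA-binding regulators linked to glycolysis, Esrrb rose (1.13 ± 0.11, adjusted p = 0.000784) and Lin28b fell (-0.98 ± 0.20, adjusted p = 0.0139), the latter not without WT replicate 2 (0.144). In C54Y limma with the block called none of the 102 tested genes of these lists. At an unadjusted p under 0.05 there were 17, beside 12.3% of all tested genes. Blocked edgeR called Bhlhe41, and blocked DESeq2 called Pcx, Plod2, Bhlhe41 and Myc (3.92%). Of all tested genes, blocked DESeq2 called 479 and limma 208.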

How the data were processed

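Total RNA of 6 samples was sequenced. The authors deposited 1 table of normalized counts (unit signal), and per the submitters' processing notes the tools were TopHat2 2.1.0, HTSeq, Trimmomatic, CASAVA and DESeq2, with mm9 as the build. Their roles, the gene annotation, strand setting and treatment of multiply mapping reads are not given in the sources used here. Dividing each deposited signal value by the smallest one above 0 in its library gave a whole number (100% of values, relative tolerance 1e-06), so whole reads were recovered.

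Log2 of the normalized count plus 2 was fitted with limma 3.58.1 (trend and robust, R 4.3.3) over all 6 libraries, with genotype and replicate number, leaving 2 residual degrees of freedom, for the 15287 genes with at least 10 in at least 2 libraries. Fold changes on this scale understate changes of low genes. The block is in the model because the genes were to be compared within each replicate number. Deviations from group means correlated at 0.869 to 0.907 between genotypes, which is a property of the data, not of the labels. P-values were adjusted by the Benjamini-Hochberg method over all tested genes in each comparison. Alternatives were no block, pseudocounts 0.5 and 8, no filter, TMM factors, edgeR 4.0.16 and DESeq2 1.42.0 on recovered reads, and each library left out. Unblocked edgeR and DESeq2, and the median without X-linked members, were added after the data were seen.

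The members and lists were chosen with earlier results of these data known, so no list test was made. Values in every library are given for Pfkp, Ldha, Pgk1, Hif1a and each member called against WT, and at most 4 called genes are named per other list. The values of 1 called gene of these lists are not reported here. Other members, markers, Thap1, Eno1b and Rn45s were named after their values were seen. Exon lengths and copies came from GENCODE M21 (blastn 2.17.0), promoters and chromosomes from RefSeq GRCm38.p6, which is not the build of the files.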

Additional observations from a re-analysis of the deposited data

How the results depend on the processing

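Without the replicate block limma called 0 of the 35 genes up and 0 down in KO and 0 up in C54Y, as did unblocked edgeR (0) and unblocked DESeq2 (0). These alternatives treat the difference between replicate numbers as noise. In KO, with TMM factors and with blocked edgeR, 1095 and 1085 of all tested genes were called up, in place of 1361. Their median log2 fold change was -0.06 and -0.05, in place of 0.03. Of the 35 genes, 4 and 4 were called up in place of 8, and their median was 0.05 and 0.07 in place of 0.14. With a library left out, 5 to 11 were called up and 1 to 9 down in KO, with medians of 0.13 to 0.21. In C54Y, DESeq2 with the replicate block called 136 of all tested genes down, in place of 61, and 1 of the 35. The median of the 35 was 0.06 with blocked edgeR, 0.04 with unblocked edgeR and 0.05 with unblocked DESeq2. Leaving out a library gave 0 to 6 up, 0 to 2 down and medians of 0.05 to 0.12. Between KO and C54Y it gave 0 to 7 up, 0 to 6 down and medians of -0.05 to 0.15, and the median was -0.02 with TMM factors and with blocked edgeR. Between KO and C54Y the median of all tested genes was -0.04 with TMM factors and -0.03 with blocked edgeR, in place of 0.03. Between replicates the median of the 35 was 0.49 with TMM factors and 0.49 with edgeR, and 0.56 to 0.67 with a library left out. That of all tested genes was -0.09 with TMM factors and with edgeR, in place of 0.01. With a library left out, up to 2 of the 35 members changed sign in KO, up to 9 in C54Y (without C54Y replicate 2) and up to 8 between KO and C54Y (without KO replicate 1). Among Pfkp, Ldha, Pgk1, Hif1a and the members called in the same comparison against WT, signs turned for values that were not called: Hif1a in KO (-0.11 without KO replicate 1, up to 0.39 without KO replicate 2), Hif1a in C54Y (-0.19 without C54Y replicate 2, up to 0.27 without C54Y replicate 1, -0.10 with unblocked edgeR, -0.07 with unblocked DESeq2) and Ldha in C54Y (-0.03 without WT replicate 1, up to 0.26 without WT replicate 2). The cause of these shifts was not tested. With a library left out, the counts called among all tested genes moved as well. With 2 libraries per genotype, a difference that was not called is not shown to be absent.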

Other observations

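The neighbouring lists also differed between the replicate numbers, by limma with the replicate number in the model. Of the 8 pentose phosphate genes, 6 were higher and 1 lower in replicate 2 (median log2 fold change 0.93). Of 20 other isozymes and side steps, 10 were higher and 3 lower (0.58). Of 38 other HIF targets, 9 were higher and 14 lower (-0.13), and of 14 HIF regulators 4 were higher and 5 lower (-0.24). For all tested genes, 32.0% were higher and 32.8% lower. The RNA-binding protein gene Lin28b read 2165, 1858 and 1326 normalized counts in WT, C54Y and KO of replicate 1 and 311, 192 and 130 in replicate 2. The collagen-modifying Plod2 read 2875, 1662 and 1736, then 634, 398 and 256. Both were thus low in the libraries in which Hif1a was low. These genes were picked after their values were seen.

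The smooth-muscle and fibroblast gene Tagln read 9022, 6106 and 393 in WT, C54Y and KO of replicate 1 and 8172, 8943 and 6915 in replicate 2, so KO replicate 1 stood apart from the other 5 libraries. Acta2 read 966, 736 and 282, then 11360, 14988 and 14746. Within replicates 1 and 2, KO exceeded WT by 1.53 and 1.30 in Pfkp and by 1.02 and 0.67 in Pgk1. The differences were 0.82 and 0.41 in Ldha and 1.03 and 0.62 in Pdk3. The part of feeder content in these differences was not tested.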
